A study of Homo sapiens with 12 samples.

Results

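The serpin genes were taken as all genes whose symbol is SERPIN followed by 1 clade letter and a number, which gave 35 of the 62710 genes in the tables. They fall into 9 clades, with 11 members in clade A, 13 in clade B, 3 in clade E, 2 each in clades F and I, and 1 each in clades C, D, G and H. A further 8 rows with serpin symbols of another form, such as SERPINB9P1, were not counted as members. The RNA came from 3 established human hepatocellular carcinoma cell lines, PLC/PRF/5, HLF and SNU475, each kept with 20 mM lactate, given as lactic acid, for 24 h or without it as the control. Each of the 6 groups has 2 libraries, 12 in all. Neither the medium of the controls nor its acidity is stated. The study's title concerns lactate, a lactyl mark on histone H4 and glycolysis in liver cancer, and the comparisons here ask how serpin transcripts differ between the untreated lines and with lactate in each line.

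Serpins are proteins with a shared fold, most of which trap a target protease when it cuts their exposed reactive loop and are used up in doing so. The hepatocyte secretes many of the circulating members, among them the inhibitors of elastase, thrombin, plasmin and the first complement component. Clade B members lack a classical secretion signal and mostly act inside cells, and a few serpins inhibit no protease but carry hormones or, as SERPINH1 does, chaperone collagen.

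Library totals were 16533437 to 22187849 estimated counts, and levels are given in TPM, a length-corrected share of transcripts scaled to the same total in every library. Mitochondrial transcripts took 6.21% to 7.08% of counts in PLC/PRF/5, 3.39% to 9.52% in HLF and 8.0% to 15.05% in SNU475. The SNU475 libraries numbered 2 stand apart, at 13.88% with lactate and 15.05% in the control, against 8.5% and 8.0% in those numbered 1. Hepatocyte markers separated the lines: 11 of 11 passed the test as higher in untreated PLC/PRF/5 than in either other line, with a summed level of 1136 to 1561 TPM in untreated PLC/PRF/5, 8.29 to 15.4 TPM in untreated HLF and 2.45 to 2.72 TPM in untreated SNU475. Albumin had 0 counts in untreated HLF and 2 in untreated SNU475. The 10 markers of other liver cell types summed to 120 to 196 TPM in untreated PLC/PRF/5, 146 to 167 TPM in untreated HLF and 45.5 to 96.1 TPM in untreated SNU475. Of 7 tested entries, with RGS5 under more than 1 identifier, 2 were higher and 3 lower in untreated PLC/PRF/5 than in untreated HLF, 2 higher and 5 lower in untreated PLC/PRF/5 than in untreated SNU475, and 1 higher and 2 lower in untreated HLF than in untreated SNU475. The T cell gene CD3E had no count in the controls, and the leukocyte gene PTPRC had none in untreated PLC/PRF/5 or HLF and 32 in untreated SNU475. The macrophage gene CD68 was at 26.3 ± 2.23 TPM in untreated PLC/PRF/5, 151 ± 14.5 in untreated HLF and 59.1 ± 33.35 in untreated SNU475, and the stromal gene DCN had 0, 13 and 247 counts in the same order. Lysozyme (LYZ) was at 128 ± 51.9 TPM in untreated PLC/PRF/5, against 0.02 ± 0.03 in untreated HLF and 0.12 ± 0.02 in untreated SNU475 (SD, n = 2).

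Of the 35 serpins, 21 passed the filter on low counts and were tested. A total of 6 had no count in any library (SERPINA7, SERPINA9, SERPINA11, SERPINA12, SERPINB13 and SERPINI2). A further 5 had under 10 counts in all 12 libraries together (SERPINA2, SERPINB10, SERPINB11, SERPINB12 and SERPINE3) and lie near the detection limit. SERPINA4 with 10 counts, SERPINB5 with 11 and SERPINC1, the antithrombin gene, with 23 were detected but not tested. Since the filter can keep a gene through the line in which it is high, counts over the 21 describe them and are not evidence of a difference in the whole family. Of the 21, 11 had at least 10 counts in each line, 7 in only 2 lines and 3 in only 1.

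**Figure D1:**
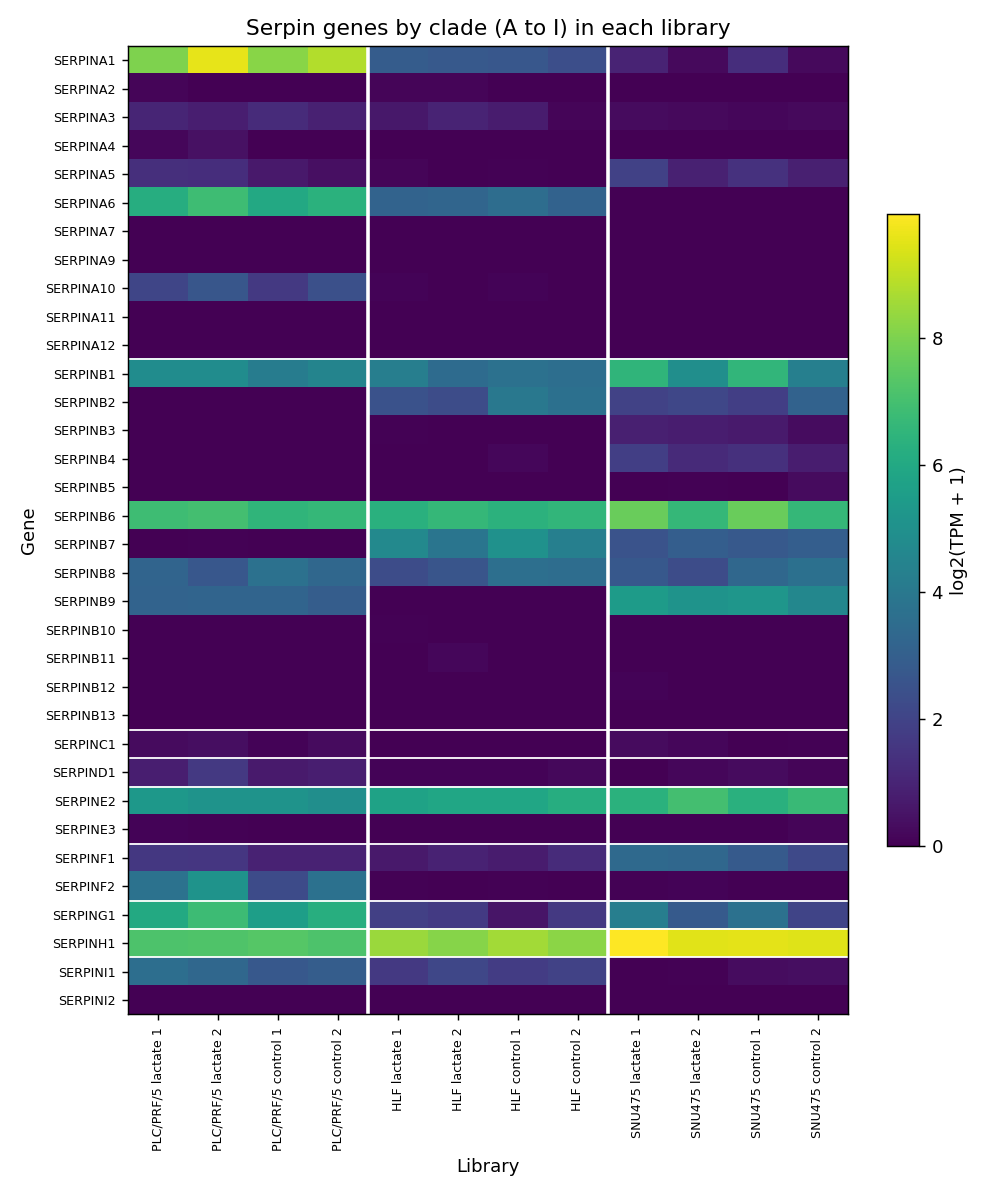
Level of serpin genes (rows, by clade) in each of the 12 libraries (columns, lactate left of control within a line) as log2(TPM + 1). SERPINH1 is bright in SNU475, SERPINA1 is bright in PLC/PRF/5, and 6 rows hold no count at all.

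The lines differed in the summed level of whole clades. Clade A, the clade of α1-antitrypsin, summed to 355 and 535 TPM in the PLC/PRF/5 controls, against 17.1 and 12.2 TPM in those of HLF and 3.33 and 1.22 TPM in those of SNU475. Clade B summed to 129 and 135 TPM in the PLC/PRF/5 controls, 154 and 144 TPM in those of HLF and 355 and 168 TPM in those of SNU475. Clade H, which is SERPINH1 alone, was at 162 and 144 TPM in the PLC/PRF/5 controls, 377 and 295 TPM in those of HLF and 740 and 716 TPM in those of SNU475. Clade A was thus highest in both PLC/PRF/5 controls and clade H in both SNU475 controls. These are bulk samples, in which fewer cells expressing a gene and less RNA per cell cannot be told apart.

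**Figure D2:**
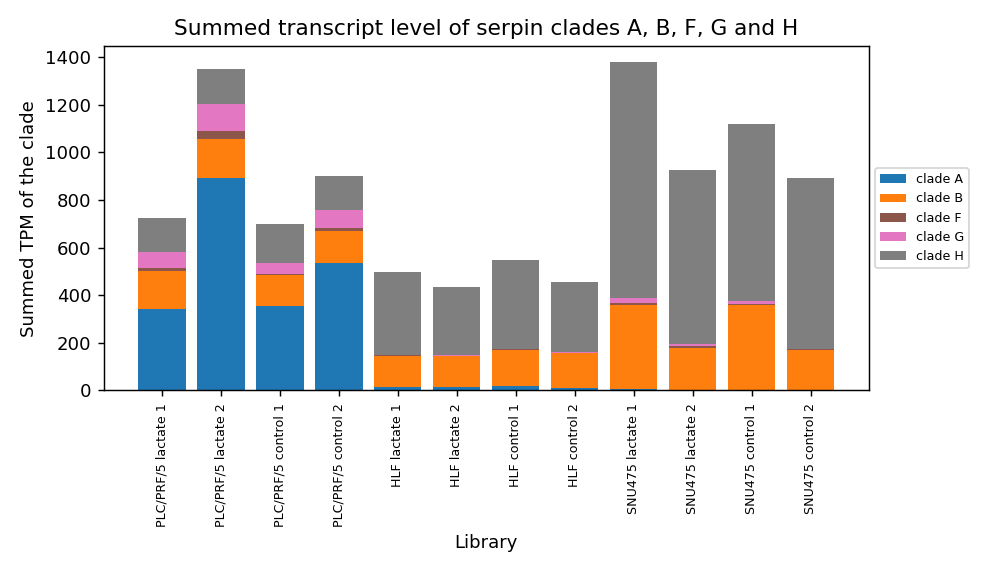
Summed TPM of serpin clades A, B, F, G and H (stacked colours) in each library, with lactate left of control within a line. Of these clades, A is the tallest part in PLC/PRF/5, and H in HLF and SNU475, where it reaches 991 TPM with lactate.

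Among the untreated lines, 7 of the 21 tested serpins passed the test as higher in PLC/PRF/5 than in HLF (33.3%, against 21.7% of all 18355 genes tested) and 5 as lower (23.8%, against 21.3%). Against untreated SNU475, 6 were higher in PLC/PRF/5 (28.6%, against 22.4% of all genes) and 12 were lower (57.1%, against 26.3%). With TPM on a log2 scale and a pseudocount of 1, that split was 7 higher and 9 lower, against 5714 higher and 2832 lower of all genes. In HLF against SNU475, 5 were higher (23.8%, against 17.2%) and 9 lower (42.9%, against 21.9%), or 6 and 7 with that TPM scale. On it 3452 of all genes were higher in HLF than in SNU475 and 2519 lower. All calls are those of edgeR's quasi-likelihood test at a Benjamini-Hochberg adjusted p below 0.05 over all genes tested.

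Clade A genes were mostly PLC/PRF/5 transcripts. SERPINA1, the α1-antitrypsin gene whose product protects tissue from neutrophil elastase, was measured at 263 and 768 TPM in PLC/PRF/5 with lactate, against 287 and 448 TPM in the controls. In HLF it was at 6.50 and 5.88 TPM with lactate, against 5.53 and 4.27 TPM in the controls, and in SNU475 at 1.0 and 0.19 TPM with lactate, against 1.5 and 0.20 TPM. No PLC/PRF/5 library overlaps any library of the other lines. The log2 difference of untreated PLC/PRF/5 was 5.79 ± 0.53 (standard error) over HLF and 9.45 ± 0.67 over SNU475, and that of untreated HLF over SNU475 was 3.66 ± 0.65 (edgeR, adjusted p = 5.77e-06, 1.02e-06 and 0.00105).

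SERPINA6, which encodes corticosteroid-binding globulin, a hormone carrier, had 71.8 and 114 TPM in PLC/PRF/5 with lactate, against 63.7 and 81.2 TPM in the controls. It had 8.09 and 8.57 TPM in HLF with lactate, against 10.7 and 7.84 TPM in the controls, and no count in any SNU475 library. Its level in untreated PLC/PRF/5 exceeded that in untreated HLF by 2.58 ± 0.35 on the log2 scale (edgeR, adjusted p = 2.85e-04). Taking 3 counts over the SNU475 control group as the floor, it was at least 825-fold higher in untreated PLC/PRF/5 and at least 122-fold higher in untreated HLF than in untreated SNU475. SERPINA10, an inhibitor of coagulation factor X, had 3.28 and 5.28 TPM in PLC/PRF/5 with lactate, against 2.13 and 4.37 TPM in the controls. It had at most 0.08 TPM in HLF and no count in SNU475, which puts untreated PLC/PRF/5 at least 75.1-fold above untreated SNU475.

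SERPINA1, SERPINA6 and SERPINA10 are neighbours on chromosome 14, where 10 clade A genes lie in a row (SERPINA1 at chr14:94376747-94390693, GENCODE v29 on GRCh38, minus strand). Along the chromosome the order is SERPINA10, SERPINA6, SERPINA2, SERPINA1, SERPINA11, SERPINA9, SERPINA12, SERPINA4, SERPINA5 and SERPINA3. The genes that PLC/PRF/5 cells transcribed most lie together at the start of that row, with SERPINA2 among them at 3 counts in all 12 libraries. SERPINA11, SERPINA9 and SERPINA12, the next in order, had none. Promoter windows of RefSeq on GRCh38.p14, 250 bases before to 50 after each start, were found for 27 of the 35 serpins, in 41 windows (those without one include SERPINC1, SERPINF1, SERPINF2, SERPING1, SERPINA2, SERPINB10 and SERPINB11). They were searched on both strands for CAGACA, the CAGA box described for SMAD proteins, for ACGTG, the core of the hypoxia element, and for CACGTG, the E-box, which contains ACGTG. Of all 35116 windows, 16.88% hold CAGACA, 21.41% ACGTG and 7.26% CACGTG.

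A window of each of the 3 PLC/PRF/5 transcripts is shown, since these neighbours were higher together in that line, 5′ to 3′ on the gene's strand. Capitals mark the searched letters, which are CAGACA at position -218 from the gene's start in the SERPINA10 window and none in the SERPINA1 and SERPINA6 windows shown. A second SERPINA1 window (chr14:94390586-94390885) holds CAGACA at -175 and -147, both on the opposite strand, and a second SERPINA10 window (chr14:94293007-94293306) holds ACGTG at -45.
SERPINA1, chr14:94388553-94388852, minus strand: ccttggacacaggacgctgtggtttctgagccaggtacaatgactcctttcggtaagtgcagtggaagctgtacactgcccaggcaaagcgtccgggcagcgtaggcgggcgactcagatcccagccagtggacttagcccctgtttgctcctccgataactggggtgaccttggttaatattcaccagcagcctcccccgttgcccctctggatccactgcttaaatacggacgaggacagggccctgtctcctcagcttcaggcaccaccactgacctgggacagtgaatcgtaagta
SERPINA6, chr14:94323287-94323586, minus strand: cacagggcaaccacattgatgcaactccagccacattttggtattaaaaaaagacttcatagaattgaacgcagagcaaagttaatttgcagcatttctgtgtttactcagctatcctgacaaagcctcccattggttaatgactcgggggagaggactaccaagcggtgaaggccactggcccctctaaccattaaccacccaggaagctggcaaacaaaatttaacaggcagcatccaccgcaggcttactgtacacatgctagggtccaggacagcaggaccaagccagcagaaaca
SERPINA10, chr14:94293219-94293518, minus strand: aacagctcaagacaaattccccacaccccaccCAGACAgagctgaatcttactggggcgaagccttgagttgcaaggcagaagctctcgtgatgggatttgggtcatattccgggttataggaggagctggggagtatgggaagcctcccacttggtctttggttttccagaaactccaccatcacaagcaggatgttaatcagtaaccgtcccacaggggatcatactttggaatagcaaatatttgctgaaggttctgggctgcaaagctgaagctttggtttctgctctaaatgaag
A match describes the letters and does not show binding, and no match says only that these letters are not in this window.

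The other clade A members were low. SERPINA3, α1-antichymotrypsin, an inhibitor of cathepsin G, averaged 1.12 ± 0.34 TPM in untreated PLC/PRF/5, 0.40 ± 0.42 in untreated HLF and 0.17 ± 0.04 in untreated SNU475 (SD, n = 2), and no untreated pair passed the test. SERPINA5, the protein C inhibitor, was highest in SNU475, with 0.48 ± 0.20 TPM in untreated PLC/PRF/5 and 0.02 ± 0.02 in untreated HLF, against 1.25 ± 0.62 in untreated SNU475. It passed the test as lower in untreated PLC/PRF/5 than in untreated SNU475 (-2.06 ± 0.72 on the log2 scale, edgeR, adjusted p = 0.0344). Against the single count in untreated HLF, the 21 counts of untreated PLC/PRF/5 gave a ratio of 24.4 (95% exact interval 3.93 to 1010, counting error only).

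Clade B, the mostly intracellular clade, was shared more evenly than clade A in its summed level but not gene by gene. The largest differences of its genes were absences. SERPINB6, an inhibitor of cathepsin G and other serine proteases, was the most abundant clade B gene by TPM in each line. It was at 116 and 124 TPM in PLC/PRF/5 with lactate, against 91.1 and 97.8 TPM in the controls, and at 79.6 and 96.8 TPM in HLF with lactate, against 83.9 and 92.1 TPM. SNU475 had 205 and 97.5 TPM with lactate, against 206 and 98.1 TPM, so its libraries differed by their number and not by treatment. The difference of untreated PLC/PRF/5 from untreated HLF did not pass the test (-0.21 ± 0.27), and SERPINB6 was lower in both than in untreated SNU475 (-1.13 ± 0.27 and -0.93 ± 0.27, edgeR, adjusted p = 0.00527 and 0.0186).

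SERPINB1, the inhibitor of neutrophil elastase, was at 27.4 and 27.7 TPM in PLC/PRF/5 with lactate, against 17.3 and 21.3 TPM in the controls, and at 18.25 and 10.03 TPM in HLF with lactate, against 12.1 and 11.03 TPM. In SNU475 it was at 89.8 and 29.5 TPM with lactate, against 93.4 and 18.7 TPM, a gap between library numbers of 3.04-fold with lactate and 4.99-fold in the controls. The mitochondrial share of the SNU475 libraries differs by number too, and its part in these gaps was not tested. Both untreated PLC/PRF/5 (-1.75 ± 0.49) and untreated HLF (-2.38 ± 0.51) passed the test as lower than untreated SNU475 (edgeR, adjusted p = 0.0127 and 0.00337). SERPINB9, the inhibitor of granzyme B, had no count in any of the 4 HLF libraries. It was at 7.95 and 8.21 TPM in PLC/PRF/5 with lactate, against 8.36 and 6.73 TPM in the controls, and at 43.3 and 33.8 TPM in SNU475 with lactate, against 36.6 and 23.1 TPM. The level in untreated PLC/PRF/5 was at least 292-fold above that in untreated HLF, and untreated HLF at least 1360-fold below untreated SNU475. SERPINB1, SERPINB9 and SERPINB6 are neighbours on chromosome 6, in that order, so a gene without counts in HLF lies between 2 that HLF transcribed.

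SERPINB2, plasminogen activator inhibitor 2, and SERPINB7, known from its loss in a form of palmoplantar keratosis, were absent from PLC/PRF/5, with 0 and 1 counts in its 4 libraries. SERPINB2 was at 4.76 and 4.03 TPM in HLF with lactate, against 14.9 and 11.6 TPM in the controls, and at 2.87 and 3.37 TPM in SNU475 with lactate, against 2.58 and 7.82 TPM. SERPINB7 was at 24.6 and 13.6 TPM in HLF with lactate, against 31.7 and 18.8 TPM, and at 4.81 and 6.79 TPM in SNU475 with lactate, against 5.82 and 6.94 TPM. For SERPINB2, untreated PLC/PRF/5 was at least 212-fold below untreated HLF and at least 92.7-fold below untreated SNU475, and at least 454-fold and at least 120-fold below them for SERPINB7. Untreated HLF exceeded untreated SNU475 for SERPINB7 by 1.79 ± 0.49 (edgeR, adjusted p = 0.0143), while SERPINB2, at 1.05 ± 0.57, did not pass (adjusted p = 0.175). SERPINB7 and SERPINB2 are adjacent among 10 clade B genes on chromosome 18, and SERPINB8 is the last in that row. SERPINB8 averaged 10.6 ± 2.30 TPM in untreated PLC/PRF/5, 11.02 ± 0.51 in untreated HLF and 10.3 ± 1.90 in untreated SNU475 (SD, n = 2), and no untreated pair passed the test (log2 differences of -0.24 ± 0.31, -0.36 ± 0.31 and -0.12 ± 0.31 for PLC/PRF/5 over HLF, PLC/PRF/5 over SNU475 and HLF over SNU475).

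SERPINB3 and SERPINB4, the squamous cell carcinoma antigens, are near-identical copies whose reads the authors' counting could split, so their separate levels are uncertain. They were SNU475 transcripts, with 34 and 82 counts in its lactate group, against 22 and 58 counts in its controls, no count in PLC/PRF/5 and at most 2 in either HLF group. With that floor, untreated PLC/PRF/5 was at least 6.48-fold below untreated SNU475 for SERPINB3 and at least 17.1-fold below it for SERPINB4. The epithelial gene SERPINB5 (maspin) had 11 counts, all in SNU475.

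**Figure D3:**
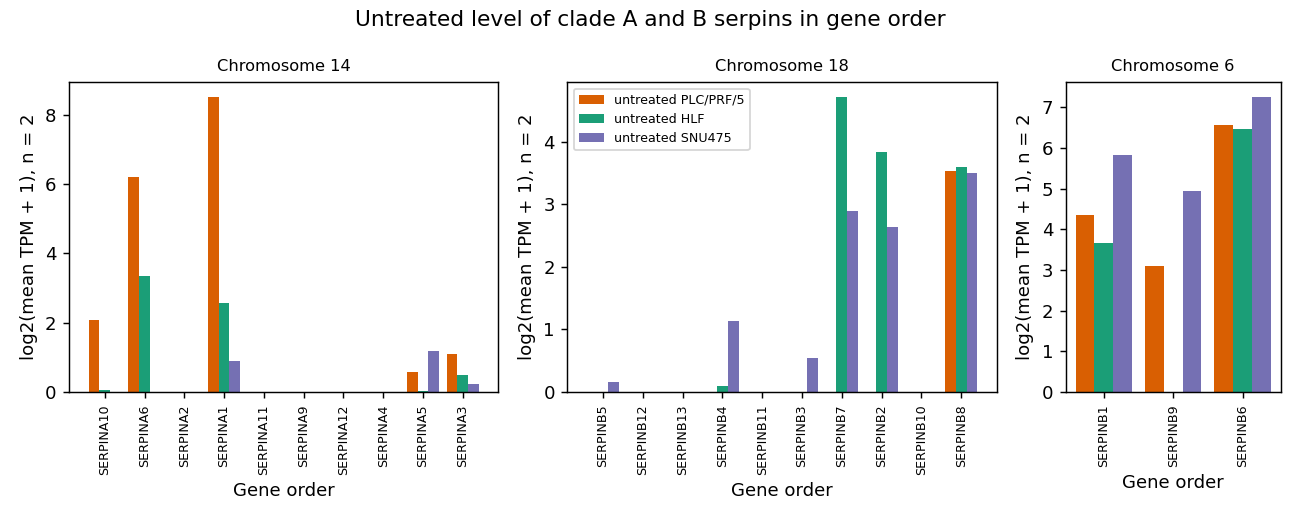
Mean level of the clade A and B serpins in untreated PLC/PRF/5, HLF and SNU475 as log2(mean TPM + 1) of 2 libraries, with genes in their order along chromosomes 14, 18 and 6. SERPINA10, SERPINA6 and SERPINA1 stand together with PLC/PRF/5 highest, SERPINB7 and SERPINB2 have no PLC/PRF/5 bar, and SERPINB9 has no HLF bar between SERPINB1 and SERPINB6.

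SERPINE2 of clade E, protease nexin 1, a cell-surface inhibitor of thrombin and urokinase, was at 38.3 and 33.9 TPM in PLC/PRF/5 with lactate, against 34.0 and 29.1 TPM in the controls, at 51.8 and 58.3 TPM in HLF with lactate, against 58.2 and 73.3 TPM, and at 81.8 and 126 TPM in SNU475 with lactate, against 79.7 and 107 TPM. SERPINE2 in untreated PLC/PRF/5 was lower than in both other untreated lines (-1.28 ± 0.33 and -2.14 ± 0.34, edgeR, adjusted p = 0.00867 and 3.56e-04), and HLF against SNU475 missed the threshold (-0.86 ± 0.33, adjusted p = 0.0555). The SERPINE2 promoter window at chr2:224031429-224031728 holds the letters CACGTG, found in no other serpin window searched and in 7.26% of all windows. The other SERPINE2 window, at chr2:224038591-224038890, holds none of the searched letters.

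Among the plasma inhibitors of clades D, F and G, SERPING1 and SERPINF2 were higher in untreated PLC/PRF/5 than in both other untreated lines. SERPING1, the C1 inhibitor of the complement and contact systems, was at 66.0 and 112 TPM in PLC/PRF/5 with lactate, against 46.6 and 74.1 TPM in the controls. It was at 2.73 and 2.22 TPM in HLF with lactate, against 0.48 and 2.16 TPM, and at 18.2 and 6.11 TPM in SNU475 with lactate, against 12.2 and 3.17 TPM. In SNU475 the library number separates its values more than the treatment does. SERPING1 in untreated PLC/PRF/5 exceeded that in untreated HLF by 6.25 ± 0.69 and that in untreated SNU475 by 3.12 ± 0.56 (edgeR, adjusted p = 2.61e-05 and 8.76e-04).

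SERPINF2, α2-antiplasmin, was at 12.5 and 33.2 TPM in PLC/PRF/5 with lactate, against 3.89 and 12.3 TPM in the controls, and had 3 counts in each of the other lines over 4 libraries. Against the 2 counts of untreated HLF, the 428 of untreated PLC/PRF/5 gave a ratio of 249 (95% exact interval 68.5 to 2060), and untreated PLC/PRF/5 was at least 162-fold above untreated SNU475. Its neighbour on chromosome 17, SERPINF1, pigment epithelium-derived factor, which inhibits no protease and is known as an inhibitor of vessel growth, averaged 0.92 ± 0.02 TPM in untreated PLC/PRF/5 and 1.02 ± 0.46 in untreated HLF, against 4.83 ± 1.84 in untreated SNU475 (SD, n = 2), and both were lower than SNU475 (-3.39 ± 0.55 and -3.62 ± 0.56, edgeR, adjusted p = 4.10e-04 and 4.12e-04). SERPIND1, heparin cofactor 2, had 117 counts in PLC/PRF/5, 11 in HLF and 12 in SNU475, and no untreated pair passed the test.

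SERPINH1, the collagen chaperone HSP47 of the endoplasmic reticulum, was at 143 and 146 TPM in PLC/PRF/5 with lactate, against 162 and 144 TPM in the controls, and at 346 and 285 TPM in HLF with lactate, against 377 and 295 TPM. In SNU475 it was at 991 and 733 TPM with lactate, against 740 and 716 TPM. The untreated lines did not overlap. Untreated PLC/PRF/5 was below HLF by -1.49 ± 0.25 and below SNU475 by -2.83 ± 0.27, and HLF below SNU475 by -1.34 ± 0.25 (edgeR, adjusted p = 6.45e-04, 7.62e-06 and 0.00148). In clade I, SERPINI1, neuroserpin, which inhibits the tissue activator of plasminogen, was at 11.2 and 9.06 TPM in PLC/PRF/5 with lactate, against 5.77 and 6.62 TPM in the controls, and at 2.12 and 3.30 TPM in HLF with lactate, against 2.43 and 2.91 TPM. It had 9 counts in SNU475. Untreated PLC/PRF/5 (4.49 ± 0.54) and untreated HLF (3.42 ± 0.54) both exceeded untreated SNU475 (edgeR, adjusted p = 4.98e-05 and 4.88e-04), and PLC/PRF/5 against HLF missed the threshold (1.07 ± 0.42, adjusted p = 0.0619).

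With lactate, 1 serpin passed the test on the mean of the effects in the 3 lines. SERPINB8, an intracellular inhibitor of furin-like proteases, fell by 1.09 ± 0.18 on the log2 scale (edgeR, adjusted p = 0.0359), and 0 serpins passed as higher. Of all 18355 genes tested, 0.114% were called lower and 0.305% higher, which is 21 and 56 genes, or 0 and 8 with TPM on a log2 scale and a pseudocount of 1. At an unadjusted p below 0.05, 3 of the 11 serpins with at least 10 counts in each line were found, SERPINB8, SERPINF1 and SERPING1. Of all 18355 genes tested, 2903 were below it. DESeq2 also called SERPINB8 and no serpin higher, and it called 422 of all genes lower and 525 higher. With limma-voom no serpin was called (adjusted p of SERPINB8 0.0545), and 5 of all genes were lower and 11 higher.

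SERPINB8 lies at chr18:63969925-64019779 (GENCODE v29 on GRCh38, plus strand). It was at 8.19 and 5.43 TPM in PLC/PRF/5 with lactate, against 12.2 and 8.95 TPM in the controls, from 293 and 156 counts, against 300 and 258. It was at 3.99 and 5.13 TPM in HLF with lactate, against 11.4 and 10.7 TPM in the controls, and at 5.67 and 3.92 TPM in SNU475 with lactate, against 8.94 and 11.6 TPM. Both lactate libraries were below both controls in each of the 3 lines, in TPM and in CPM, counts scaled for depth by TMM factors. Among all genes tested 3.37% had that pattern in scaled CPM, and SERPINB8 was the one serpin with it, while 2.72% of genes and no serpin had both lactate libraries above both controls in every line.

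The log2 fold changes of SERPINB8 were -0.63 ± 0.31 in PLC/PRF/5, -1.32 ± 0.32 in HLF and -1.33 ± 0.32 in SNU475, and none of these passed on its own (edgeR, adjusted p = 0.859, 0.57 and 0.265). The difference between lines did not pass either (interaction, edgeR, adjusted p = 1). The mean effect keeps its sign but not its call when a library is left out: without any of the HLF or PLC/PRF/5 libraries, or without SNU475 control 2, it lay between -1.19 and -1.003 with adjusted p of 0.0677 to 0.19. HMSD overlaps SERPINB8 on the same strand, with 123 counts in PLC/PRF/5 with lactate against 101 in its controls, 92 against 117 in HLF, and 7 against 0 in SNU475. AC009802.1, an antisense gene there, had 52 counts in all, and the part of either gene in the result was not tested.

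The SERPINB8 promoter window is shown because SERPINB8 is the serpin whose lactate call the comparison turns on. Capitals mark ACGTG, at positions -188 and 11 from the start, and CAGACA at position -89.
SERPINB8, chr18:63969831-63970130, plus strand: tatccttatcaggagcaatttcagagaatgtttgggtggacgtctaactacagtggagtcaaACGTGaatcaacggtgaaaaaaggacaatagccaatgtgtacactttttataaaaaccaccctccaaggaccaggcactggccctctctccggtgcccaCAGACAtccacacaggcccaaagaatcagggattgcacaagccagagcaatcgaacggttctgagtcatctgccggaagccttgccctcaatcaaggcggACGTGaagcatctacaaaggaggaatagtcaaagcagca
ACGTG stood in 8 of the 41 serpin windows, from 6 members, against 21.41% of all windows. CAGACA stood in 15, from 13 members, against 16.88% of all windows. Overlapping windows of the same gene count a shared site again, as for ACGTG in SERPINB6 and SERPINH1 and for CAGACA in SERPINB6. The near-identical copies SERPINB3 and SERPINB4 each add a CAGACA window, so these window counts are not independent. The other members with ACGTG were SERPINA10, SERPINB6, SERPINE2, SERPINE3 and SERPINH1. Of these, 3 had counts enough for a mean lactate effect, which was 0.03 ± 0.16 for SERPINB6, -0.04 ± 0.19 for SERPINE2 and -0.10 ± 0.14 for SERPINH1 (edgeR, adjusted p = 1, 1 and 0.823).

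**Figure D4:**
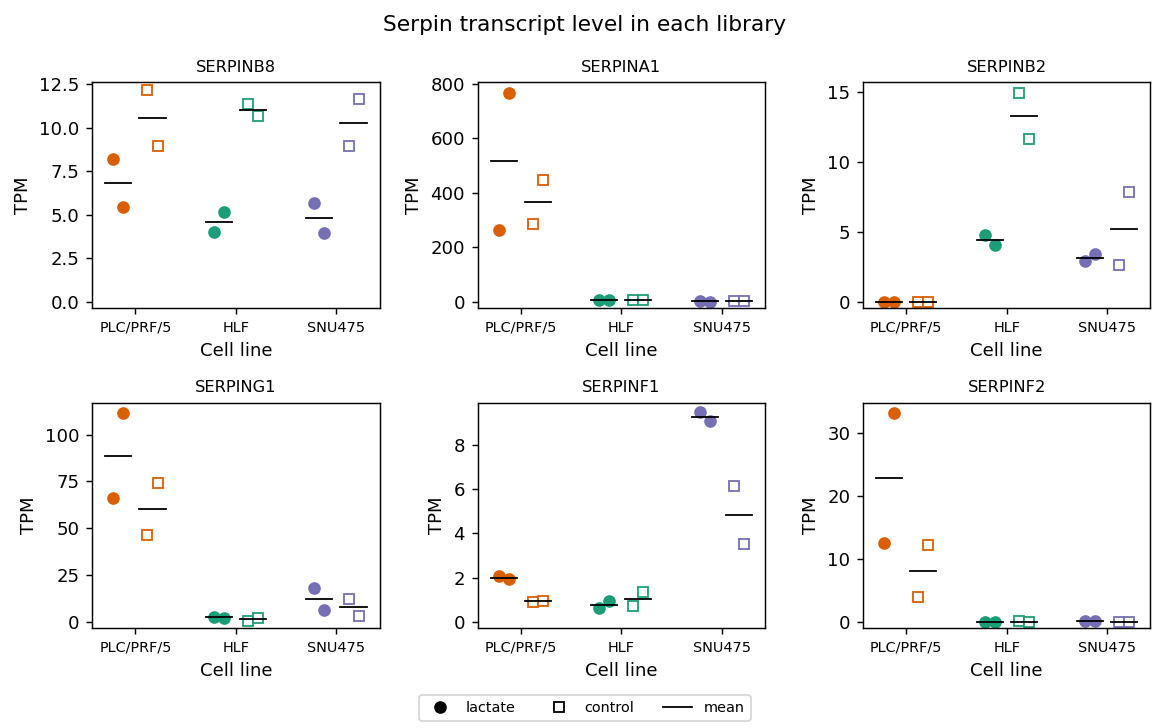
TPM of 6 serpins in each library of PLC/PRF/5, HLF and SNU475, with lactate as filled circles left of the controls as open squares and the group mean as a line. In each line both SERPINB8 lactate points lie below both control points, and the SERPINA1 and SERPINF2 points of PLC/PRF/5 lie above those of the other lines.

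In single lines, 0 of the 21 serpins passed the test in PLC/PRF/5, HLF or SNU475, where edgeR called 0.0% of all genes tested, and 0 passed the interaction of lactate with line (0.0% of all genes). At an unadjusted p below 0.05 there were 3 serpins in PLC/PRF/5, 2 in HLF, 3 in SNU475 and 1 for the interaction. Of all 18355 genes tested, 1087, 1152, 2127 and 644 were below it in the same order. The SNU475 and interaction counts each include SERPINI1, with 1 count in SNU475 with lactate against 8 in its controls. These are too few to give a fold, and without SERPINI1 the counts are 2 and 0. DESeq2 called SERPINB8 lower in HLF and SNU475 and no other serpin in a single line, and limma-voom called none. Of all genes, DESeq2 called 13 lower and 29 higher in HLF, and 117 lower and 157 higher in SNU475. With counts enough to give a fold, 14 of 17 serpins had a positive fold in PLC/PRF/5, against 52.76% of all genes tested. Their median was 0.36 on the log2 scale, against 0.03 over all genes. In HLF 5 of 14 were positive (48.02% of all genes), with a median of -0.17 against 0.00 over all genes. In SNU475 10 of 15 were positive (51.05%), with a median of 0.20 against 0.01.

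**Figure D5:**
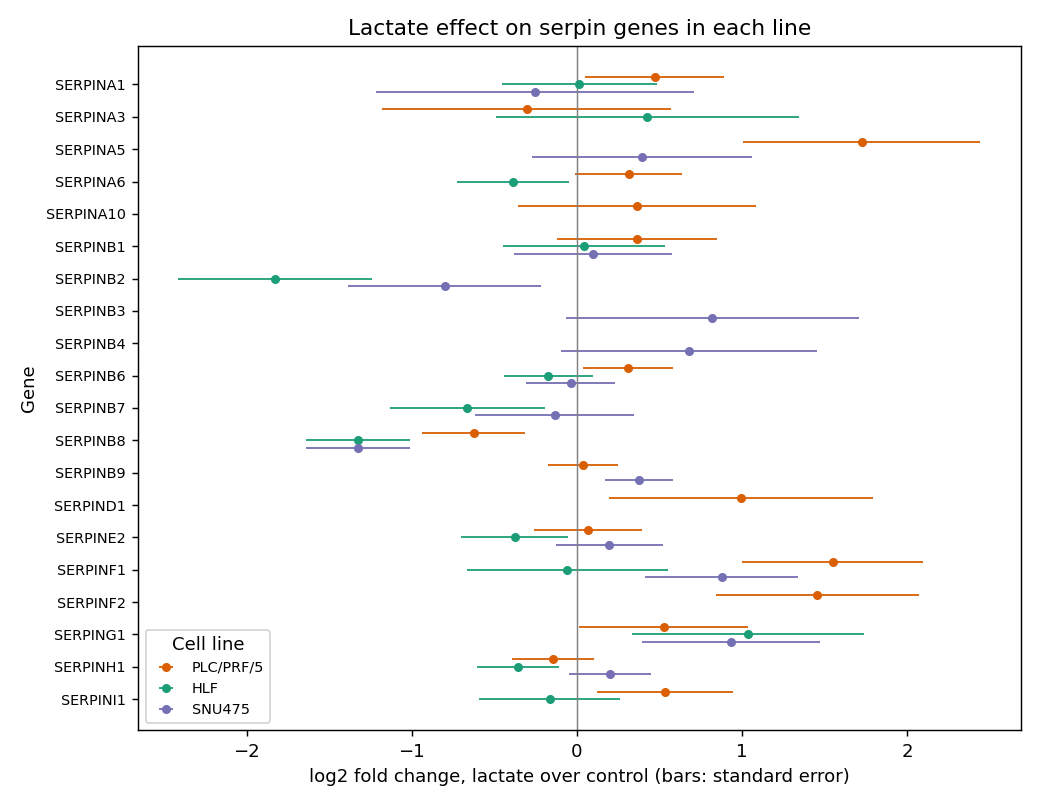
log2 fold change of lactate over control with its standard error for serpins with enough counts, in PLC/PRF/5, HLF and SNU475. SERPINB8 lies left of 0 in each line, SERPINB2 in HLF lies farthest left at -1.83, and SERPINA5 in PLC/PRF/5 farthest right at 1.72.

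Under the replicate block 2 serpins passed as higher in the mean effect, where 4.12% of all genes were called higher and 2.79% lower. SERPING1, at 0.85 ± 0.14, was among them (edgeR, adjusted p = 0.00735), and SERPINB8 passed as lower, at -1.09 ± 0.16 (adjusted p = 0.00463). Without the block SERPING1 was at 0.83 ± 0.34 (edgeR, adjusted p = 0.263). SERPING1 had folds of 0.53 ± 0.51 in PLC/PRF/5, 1.04 ± 0.70 in HLF and 0.93 ± 0.54 in SNU475. The lactate library exceeded the control of the same number in all 6 comparisons, by 0.47 to 1.23 on the log2 scale in scaled CPM. In TPM the range was 1.03-fold to 5.69-fold, with both ends in HLF, from 69 counts with lactate against 30.

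Other members had larger folds in 1 or 2 lines, none of which passed. SERPINB2 had a fold of -1.83 ± 0.59 in HLF, where both lactate libraries lie below both controls, and of -0.80 ± 0.58 in SNU475, where they overlap (edgeR, adjusted p = 0.734 and 0.646). Its mean over these 2 lines was -1.31 ± 0.41 (edgeR, adjusted p = 0.207). SERPINF1 was at 1.95 to 2.05 TPM in PLC/PRF/5 with lactate, against 0.91 to 0.94 TPM in the controls, from 57 and 16 counts in all. It was at 9.08 to 9.48 TPM in SNU475 with lactate, against 3.53 to 6.13 TPM, and at 0.61 to 0.95 TPM in HLF with lactate, against 0.70 to 1.35 TPM. The groups do not overlap in PLC/PRF/5 and SNU475 and do in HLF, with folds of 1.55 ± 0.55, 0.88 ± 0.46 and -0.06 ± 0.61 (edgeR, adjusted p = 0.709, 0.494 and 1). SERPINF2 in PLC/PRF/5 had a fold of 1.46 ± 0.61, with libraries that overlap in scaled CPM and are apart by 12.51 against 12.26 TPM at the closest (edgeR, adjusted p = 0.801), and 0.55 without lactate library 2. SERPINA5 there had 1.72 ± 0.72, with 85 counts against 21 (adjusted p = 0.795).

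The most abundant members showed small folds. SERPINH1 had folds of -0.14 ± 0.25 in PLC/PRF/5, -0.36 ± 0.25 in HLF and 0.20 ± 0.25 in SNU475, SERPINB6 0.31 ± 0.27, -0.17 ± 0.27 and -0.04 ± 0.27, and SERPINE2 0.07 ± 0.33, -0.38 ± 0.32 and 0.20 ± 0.32 in the same order. SERPINA1 in PLC/PRF/5 had 0.47 ± 0.42, with the lactate library numbered 1 below both controls and number 2 above them. SERPINA6 had 0.31 ± 0.33 there and -0.39 ± 0.34 in HLF, and SERPINB9 0.04 ± 0.21 there and 0.38 ± 0.21 in SNU475. None of these passed the test.

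The proteases and partners of the serpins were described from 4 lists. In the plasminogen system, the partners of SERPINB2 and SERPINF2, 6 of 8 tested genes were lower and 1 higher in untreated PLC/PRF/5 than in untreated HLF (21.3% and 21.7% of all genes), with a median log2 difference of -1.60 against 0.00 over all genes. Against untreated SNU475, 5 were lower and 1 higher (26.3% and 22.4%), and in untreated HLF 2 were lower and 3 higher than in untreated SNU475 (21.9% and 17.2%). Tissue plasminogen activator (PLAT) averaged 0.32 ± 0.30 TPM in untreated PLC/PRF/5, 48.7 ± 9.49 in untreated HLF and 8.73 ± 1.36 in untreated SNU475, and urokinase (PLAU) 2.34 ± 1.65, 340.9 ± 29.8 and 26.7 ± 14.3 TPM (SD, n = 2). The urokinase receptor PLAUR was at 2.46 ± 0.16, 134 ± 17.9 and 53.5 ± 3.27 TPM in the same order. Vitronectin (VTN), an adhesion protein of plasma, had the opposite order, at 510.1 ± 16.98, 0.61 ± 0.04 and 5.04 ± 4.82 TPM. Plasminogen itself (PLG) had 2 counts in untreated PLC/PRF/5 and none in untreated HLF or untreated SNU475.

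Of 12 coagulation, contact and complement proteases 9 were tested, and 4 were higher and 0 lower in untreated PLC/PRF/5 than in untreated HLF (21.7% and 21.3% of all genes). In untreated PLC/PRF/5 4 were higher and 3 lower than in untreated SNU475 (22.4% and 26.3%), and in untreated HLF 1 was higher and 4 lower (17.2% and 21.9%). Prothrombin (F2), the target of antithrombin and heparin cofactor 2, was at 20.0 ± 6.58 TPM in untreated PLC/PRF/5, with 1 count in untreated HLF and none in untreated SNU475. The C1 proteases that SERPING1 inhibits were instead SNU475 transcripts: C1S was at 1.72 ± 0.21 TPM in untreated PLC/PRF/5 and 1.14 ± 0.11 in untreated HLF, against 103 ± 68.35 in untreated SNU475, and C1R at 0.26 ± 0.23 and 0.84 ± 0.21, against 57.1 ± 49.8 (SD, n = 2). Of 16 collagen chains and collagen-maturing enzymes, the clients of SERPINH1 and enzymes that act beside it, 8 were lower and 0 higher in untreated PLC/PRF/5 than in HLF (21.3% and 21.7% of all genes), and 12 lower and 2 higher than in SNU475 (26.3% and 22.4%). In untreated HLF 8 were lower and 1 higher than in SNU475 (21.9% and 17.2%). COL1A1 was at 1.46 ± 0.30 TPM in untreated PLC/PRF/5, 11.2 ± 1.05 in untreated HLF and 249.7 ± 63.7 in untreated SNU475. Of 18 intracellular and cell-surface target proteases 13 were tested, with 4 higher and 3 lower in untreated PLC/PRF/5 than in HLF, 6 higher and 3 lower than in SNU475, and 3 each way in HLF against SNU475 (the same shares of all genes). Furin (FURIN) was at 222 ± 11.9 TPM in untreated PLC/PRF/5, 47.3 ± 7.33 in untreated HLF and 41.0 ± 0.65 in untreated SNU475. Granzyme B (GZMB), the target of SERPINB9, had no count in any library.

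With lactate, 0 members of these 4 lists passed the edgeR test on the mean effect. The median effect was 0.10 over 8 plasminogen system genes, 0.35 over 5 coagulation, contact and complement proteases with counts in every line, 0.07 over 8 target proteases and 0.28 over 14 collagen genes, against 0.03 over all genes. The collagen-maturing enzymes PLOD2 (0.58 ± 0.13) and P4HA1 (0.69 ± 0.18) came nearest, with adjusted p of 0.0744 and 0.0994. Of the 5 mesenchymal, 6 epithelial and 11 hepatocyte markers and the 10 markers of other liver cell types, 0 passed for the mean lactate effect.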

How the data were processed

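RNA was measured by bulk RNA sequencing with a strand-marking kit in 12 libraries, 2 per group. The deposited files hold estimated counts and TPM per gene from RSEM, per the file headers; TPM divides the estimated count by effective length and sums to the same total in every library. Per the submitters' processing notes, STAR, RSEM, FastQC and DESeq2 were among the tools, and the builds named are the mouse GRCm38 and mm10, while all 62757 gene identifiers are human Ensembl ones; the human build is not given in the sources used here. Positions come from GENCODE v29 on GRCh38 by gene identifier and were not used in any test. The 47 rows of the Y copies of shared X and Y genes were merged with their X rows.

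Estimated counts were rounded and fitted in R 4.3.3 with edgeR 4.0.16 (robust quasi-likelihood test, TMM factors of 0.794 to 1.165, filterByExpr by group, 18355 genes, 6 residual degrees of freedom, common biological coefficient of variation 0.26), after a test on simulated data. Lactate was tested in each line, as the mean of the 3 lines and as an interaction, and the untreated lines pairwise, with Benjamini-Hochberg adjustment over all genes and a threshold of 0.05. Folds are given for members with at least 10 counts in 1 of the groups compared and above 0 in the other (at least 10 in each line for a mean over lines), and against 0 counts as bounds with a floor of 3 counts over the group. Intervals and floors cover counting error only. Alternatives were RLE factors, no filter, effective-length offsets, limma-voom (limma 3.58.1), limma on log2(TPM + 1) and log2(TPM + 0.1), DESeq2 1.42.0, each line fitted alone, a replicate block, and leaving libraries out.

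Same-numbered lactate and control libraries deviated together in SNU475 (r across genes of 0.446) and only weakly in PLC/PRF/5 (0.132) and HLF (0.101). The main test used group means without a pairing. Among the fits, only the replicate block, an alternative, took the replicate number as a pairing. The second PLC/PRF/5 libraries are numbered 2 in the titles and 3 in the deposited names. No label tells if a group's 2 libraries came from separate cultures; the p-values therefore reflect only library-to-library spread, which may be technical.

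The members and all gene lists were chosen with earlier results of these data known. Values in every library are given for serpins with a mean of at least 10 TPM in a group or a lactate call, and other detected members by range, mean or count. SERPINA10, SERPINF1 and the list genes CD3E, GZMB and PLG were given values after those were seen. Some genes and the results that rest on them are not reported here, though counts over all genes and lists include them.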

Additional observations from a re-analysis of the deposited data

How the results depend on the processing

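SERPINB8 was lower in the mean lactate effect in the main test (1 serpin), and 0 serpins were called lower with effective-length offsets (adjusted p of SERPINB8 0.0671), limma-voom (0.0545), log2(TPM + 1) (0.104) and log2(TPM + 0.1) (0.116). Leaving out each library in turn gave 0 to 1 serpins there, with 0 in 9 of 12 cases and SERPINB8 between -1.19 and -1.003. For higher in the mean, 2 serpins, SERPING1 among them, were called without the low-count filter and with the replicate block, against 0. In SNU475 the replicate block and the fit without a filter each called 1 serpin higher, and leaving out 1 library gave 0 to 1. For lower in SNU475, 1 was called without the filter and with DESeq2 (SERPINB8), and 0 to 1 when leaving out 1 library. Both counts of 1 came without SNU475 lactate 1. In HLF 1 was called lower without the filter and without both SNU475 libraries numbered 2 (SERPINB2), and 1 with DESeq2 (SERPINB8). The interaction had 1 call without the filter. The SERPINB7 mean, 0.45 over 3 lines, was -0.40 without PLC/PRF/5, an alternative chosen after seeing the data; the first value rests on 1 PLC/PRF/5 count. The cause of the other changes was not tested. Counts for the untreated lines stayed within 1.5 times the main ones under every alternative run. With log2(TPM + 1), 6 of 14 serpins were positive in HLF, against 5, and 10 of 11 in the mean effect, against 7. On that scale the median of all genes was 0.101 in HLF, 0.077 in the mean effect and 0.126 to 0.3 in the untreated pairs. The 14 untested serpins did not pass the filter on low counts, so whether they differ between lines or with lactate was not tested.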
